A study of Mus musculus with 40 samples.

Results

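Transcript levels of 10 neuropeptide receptor genes were followed across 5 brain regions of the mouse. The set held the opioid receptor genes Oprm1, Oprd1, Oprk1 and Oprl1, the tachykinin receptor genes Tacr1 and Tacr3, the neuropeptide Y receptor genes Npy1r and Npy2r, the somatostatin receptor gene Sstr4 and the cholecystokinin receptor gene Cckbr. The genes were chosen by symbol, as 10 of the 19505 genes with a named row on the array, and where a gene had several rows the one with the highest mean level was kept. Each of the 10 had a single row, all 10 passed the filter on dim genes, and 15410 genes in all were tested.

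The RNA came from amygdala, cerebellum, hippocampus, prefrontal cortex and striatum of mice aged 8 to 10 weeks, with the strain given as C56BL/6 and the genotype as Ala92D2HY or Thr92D2HY. These names stand for alanine or threonine at position 92 of the type 2 deiodinase, the Dio2 product that turns thyroxine into the active thyroid hormone. All mice were kept on a chow diet. Each region and genotype had 4 arrays, 40 arrays in 10 groups, and the labels do not say which animal an array came from, so p-values measure the spread between arrays, which may be technical. The labels give no sex, batch or date. All levels are log2 signals, and a difference of 1 unit is a doubling of the signal. The number of arrays limits the precision.

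Neuropeptides are cut from larger precursor proteins, stored in dense-core vesicles and released by active neurons, and they act over longer distances and times than fast transmitters. All 10 receptors are seven-helix proteins that signal through heterotrimeric G proteins. The opioid, neuropeptide Y and somatostatin receptors couple mainly to Gi and Go, which lower cyclic AMP and open inward-rectifier potassium channels, while the tachykinin receptors and the cholecystokinin B receptor couple mainly to Gq, which releases calcium from stores. In the brain these families are known for parts in pain, reward, fear, feeding and memory.

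Of the genes' start regions, 3 are shown because the reference table holds a single upstream window for them. Each is the 250 bases before the annotated start in GRCm38.p6, taken from RefSeq and written 5′ to 3′ in the direction of the gene, with motif matches in capitals. The windows are Oprd1 at chr4:132144487-132144736 on the minus strand, Tacr3 at chr3:134828757-134829006 on the plus strand and Sstr4 at chr2:148395127-148395376 on the plus strand. The 4 motifs searched, on both strands, were the GC box GGGCGG, the CCAAT box, the TATA box TATAAA and the hexamer AGGTCA that nuclear receptors such as the thyroid hormone receptor recognise.
Oprd1: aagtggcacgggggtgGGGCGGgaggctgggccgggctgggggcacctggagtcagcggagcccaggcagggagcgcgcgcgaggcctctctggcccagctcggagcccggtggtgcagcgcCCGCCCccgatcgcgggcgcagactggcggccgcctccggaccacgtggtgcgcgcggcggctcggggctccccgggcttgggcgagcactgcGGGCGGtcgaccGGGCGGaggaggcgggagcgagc
Tacr3: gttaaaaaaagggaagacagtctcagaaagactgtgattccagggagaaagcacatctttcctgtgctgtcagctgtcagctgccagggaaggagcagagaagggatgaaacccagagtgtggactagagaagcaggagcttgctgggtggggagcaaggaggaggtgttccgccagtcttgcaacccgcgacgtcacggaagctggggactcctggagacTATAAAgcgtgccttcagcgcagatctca
Sstr4: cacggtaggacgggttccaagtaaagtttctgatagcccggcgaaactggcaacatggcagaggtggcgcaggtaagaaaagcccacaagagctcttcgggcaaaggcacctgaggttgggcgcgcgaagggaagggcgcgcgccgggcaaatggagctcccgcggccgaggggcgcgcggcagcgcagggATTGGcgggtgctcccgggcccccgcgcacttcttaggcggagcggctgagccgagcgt
The Oprd1 window was 80.0% G and C and held 4 GC boxes, at 234, 128, 35 and 23 bases before the start, the one at 128 on the reverse strand. The Tacr3 window was 54.4% G and C and held TATAAA at 29 bases before the start. The Sstr4 window was 67.2% G and C and held a reverse-strand CCAAT box at 59 bases. Of 32851 windows of this length in the reference, 32.7% held GGGCGG, 33.8% held CCAAT, 12.4% held TATAAA and 14.0% held AGGTCA, which had no match in these 3 windows. A match is a description of the letters and not of a bound site.

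The array also carries 23 background rows, probes grouped by base content, whose mean levels ran from 2.21 to 6.41. A gene at or below 6.41 lay within that range. The cerebellum level of 8 receptor genes lay there, and so did that of Tacr3 in 4 regions, Oprk1 and Npy2r in 3 regions and Tacr1 in 2. Levels of different genes were not compared with each other, because probes differ in brightness.

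Some arrays carried raised levels of markers of another tissue, and their receptor values are set beside the marker scores after the account of the regions. A marker score is the mean level of a marker list on an array after subtracting the mean of its region. Over the lists for other brain parts, 6 arrays had a score above 1: Ala amygdala 1 and 2, Thr hippocampus 23 and 24, Ala prefrontal cortex 27 and Thr prefrontal cortex 32. Arrays Ala amygdala 2, Thr cerebellum 16, Ala hippocampus 17, Thr hippocampus 24 and Ala striatum 33 and 36 had choroid plexus scores of 1.10 to 2.53, and Thr amygdala 5 had a myelin score of 1.09. At an adjusted p under 0.05 and a difference of at least 1 log2 unit, markers of the labelled region were called higher there for 14 of 14 striatum genes, 12 of 12 cerebellum genes and 9 of 10 hippocampus genes. For the neocortex list 8 of 14 were called higher in prefrontal cortex, and 5 of 14 were called higher in amygdala. Of 13 amygdala markers 6 were called higher in amygdala and 1 lower.

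Each region was set against the average of the remaining 4 for every gene. Such a difference was called where it reached 1 log2 unit and its Benjamini-Hochberg adjusted p was under 0.05. Among 50 such comparisons of the 10 receptor genes, 31 were called, beside 9.07% of the same comparisons over all tested genes. All 10 were lower in the cerebellum, where 9.77% of all tested genes were called lower and 8.46% higher, with a median difference of -3.04 against -0.0071 for all genes. In the striatum 5 of the 10 were higher and 2 lower, where 5.56% and 5.06% of all tested genes were called. In the amygdala 5 were higher and none lower, beside 3.3% and 2.37% of tested genes. In the hippocampus 3 were higher and 2 lower, beside 3.47% and 2.27%, and in the prefrontal cortex 2 were higher and 2 lower, beside 3.19% and 1.88%. For every region but the cerebellum, the average of the remaining 4 includes the cerebellum, where all 10 genes had their lowest mean. That low level adds to an excess elsewhere, so the counts of higher genes are not independent of the cerebellum result. Npy1r, called higher in hippocampus, amygdala and prefrontal cortex, had means of 11.53, 11.30 and 11.21 there. Its striatum and cerebellum means were 9.31 and 5.70. In bulk tissue, fewer cells that carry a transcript and less transcript per cell cannot be told apart.

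**Figure D1:**
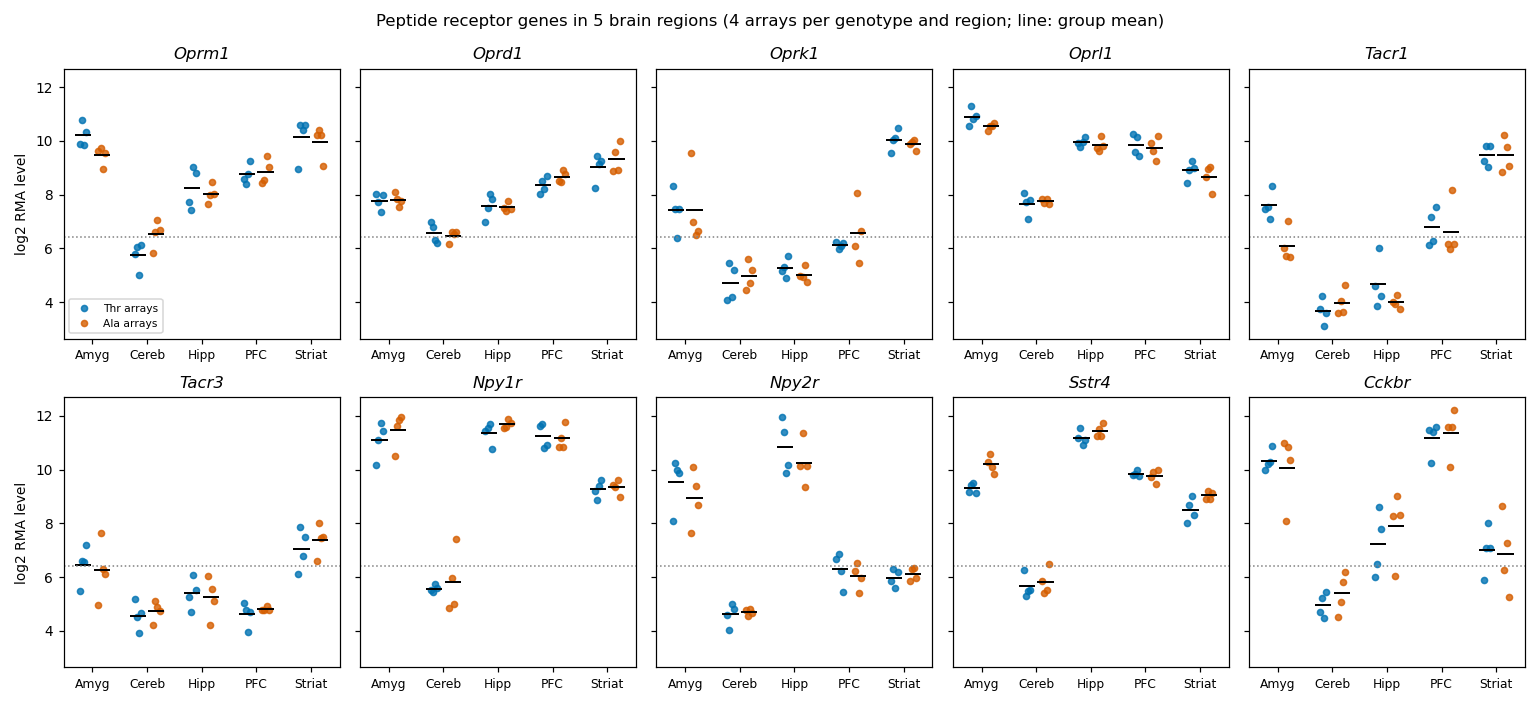
Log2 level (vertical axis) of each receptor gene on every array, by region (horizontal axis: amygdala, cerebellum, hippocampus, prefrontal cortex, striatum) and genotype (colour), with the line at each group mean and the dotted line at 6.41, the highest mean of the background rows. Oprk1 and Tacr1 stand highest in the striatum, Npy2r and Sstr4 in the hippocampus and Cckbr in the prefrontal cortex, and the mean of every gene is lowest in the cerebellum.

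Oprm1 encodes the mu opioid receptor, the main target of morphine and of the endogenous peptide beta-endorphin, and lies on chromosome 10 at 6758593 to 7038209 of GRCm38.p6. Over the 8 striatum arrays its lowest, median and highest levels were 8.96, 10.31 and 10.58, and over the 8 amygdala arrays 8.96, 9.78 and 10.76. Prefrontal cortex arrays ran from 8.40 through 8.68 to 9.42, hippocampus arrays from 7.42 through 8.00 to 9.04, and cerebellum arrays from 5.01 through 6.10 to 7.05. Striatum and amygdala overlapped across their whole range, and the cerebellum arrays lay apart below all others. Oprm1 was higher in striatum by 1.82 ± 0.20 (SE, adjusted p = 2.47e-10) and in amygdala by 1.55 ± 0.20 (adjusted p = 2.77e-08), and lower in cerebellum by 3.06 log2 units (difference -3.06). Striatum and amygdala differed by 0.22 ± 0.25 (adjusted p = 0.540), and prefrontal cortex and hippocampus by 0.67 ± 0.25 (adjusted p = 0.0513), so neither neighbouring pair was separated.

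Oprd1 encodes the delta opioid receptor, which binds enkephalins, and lies on chromosome 4 at 132110188 to 132144486. It was highest in the striatum, at 9.18 ± 0.52 (SD, n = 8) with arrays from 8.26 to 10.00. The prefrontal cortex followed at 8.50 ± 0.29, then amygdala at 7.79 ± 0.26, hippocampus at 7.56 ± 0.32 and cerebellum at 6.52 ± 0.29. Its striatum excess was 1.58 ± 0.14 (adjusted p = 1.02e-12), and of neighbours in this order the amygdala and hippocampus did not pass the p threshold (difference 0.24, adjusted p = 0.447). Striatum and prefrontal cortex (0.67) and prefrontal cortex and amygdala (0.71) passed it with differences under 1 unit. With region means spanning 2.65 log2 units, Oprd1 had a narrower spread between regions than 8 of the other 9 receptor genes, Tacr3 at 2.57 being the exception. Its cerebellum mean stood just above the background rows.

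Oprk1 encodes the kappa opioid receptor, bound by dynorphins, and lies on chromosome 1 at 5588450 to 5606134. All 8 striatum arrays were between 9.54 and 10.49, with a median of 9.98. The amygdala arrays spread from 6.39 through a median of 7.22 to 9.54, and the prefrontal cortex arrays from 5.47 through 6.15 to 8.07. Striatum stood clear of every other region except for 1 amygdala array of the Ala group at its lower edge. The excess in striatum was 4.01 ± 0.25 (adjusted p = 5.45e-17), while hippocampus at 5.14 ± 0.32 and cerebellum at 4.85 ± 0.58 were called lower and differed from each other by 0.28 ± 0.32 (adjusted p = 0.499).

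Oprl1 encodes the nociceptin receptor, which resembles the opioid receptors but binds nociceptin instead, and lies on chromosome 2 at 181715000 to 181720985. Its amygdala arrays ran from 10.36 through 10.61 to 11.31, above every array of the other 4 regions. Hippocampus at 9.89 ± 0.20 (SD, n = 8) and prefrontal cortex at 9.79 ± 0.38 were not separated (0.10 ± 0.16, adjusted p = 0.763), and striatum at 8.78 ± 0.39 and cerebellum at 7.70 ± 0.28 were lower. Oprl1 was the sole opioid receptor gene with a striatum mean below those of amygdala, hippocampus and prefrontal cortex. Its amygdala excess was 1.67 ± 0.12 (adjusted p = 8.63e-14), and its striatum difference of -0.74 stayed under the minimum of 1 unit.

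The precursors of the opioid peptides had their own pattern. Penk, which yields enkephalins, was higher in striatum by 4.95 ± 0.28 and lower in hippocampus by 4.44 log2 units (difference -4.44). Pdyn, which yields dynorphins, was higher in striatum by 4.49 ± 0.23. Thus both were called higher in the region where Oprd1 and Oprk1 had their highest means. Pnoc, the nociceptin precursor, was not called in any region, with differences between -0.77 and 0.80, and neither was Pomc, the precursor of beta-endorphin, with differences between -0.20 and 0.13. Region means were 4.99 to 6.24 for Pnoc and 4.19 to 4.45 for Pomc, all within the range of the background rows. This limits what the lack of calls can say.

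Tacr1 encodes the NK1 receptor for substance P and lies on chromosome 6 at 82402003 to 82560104. Its striatum arrays ran from 8.85 through 9.51 to 10.22, above every array of the other regions. Amygdala arrays ran from 5.66 through 7.05 to 8.32 and prefrontal cortex arrays from 5.99 through 6.22 to 8.15. These 2 regions overlapped and were not separated (0.15 ± 0.29, adjusted p = 0.811). Hippocampus at 4.34 ± 0.73 and cerebellum at 3.82 ± 0.47 (SD, n = 8) lay within the range of the background rows. The striatum excess of 4.05 ± 0.23 (adjusted p = 2.38e-18) was close in size to those of Npy2r in hippocampus and Oprk1 in striatum.

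Tacr3 encodes the NK3 receptor, which prefers neurokinin B, and lies on chromosome 3 at 134829007 to 134934581. In striatum its arrays ran from 6.12 through 7.48 to 8.03 and in amygdala from 4.97 through 6.43 to 7.65, so the regions overlapped. The excess in striatum was 1.97 ± 0.23 (adjusted p = 3.13e-09). The means of amygdala at 6.36 ± 0.86 (SD, n = 8), hippocampus at 5.32 ± 0.64, prefrontal cortex at 4.72 ± 0.32 and cerebellum at 4.66 ± 0.44 were within the background range. Hippocampus and prefrontal cortex, and prefrontal cortex and cerebellum, were not separated, with adjusted p of 0.166 and 0.889. Arrays within a group made up 24.1% of the variance of Tacr3, more than for any other of the 10 genes.

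The tachykinin precursors divided between regions. Tac1, the precursor of substance P and neurokinin A, was higher in striatum by 6.69 ± 0.27 and in amygdala by 1.26. Tac2, the mouse precursor of neurokinin B, was higher in amygdala by 1.65 ± 0.24 and in prefrontal cortex by 1.39 ± 0.24, and its striatum difference of -0.73 was not called. Tacr3 was therefore called higher in striatum, where Tac2 was not, and was called lower in prefrontal cortex (difference -1.18), where Tac2 was called higher.

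Npy1r encodes the Y1 receptor, by which neuropeptide Y acts on feeding and anxiety, and lies on chromosome 8 at 66697149 to 66706800. Its arrays ran from 10.79 through 11.57 to 11.87 in hippocampus, from 10.16 through 11.54 to 11.95 in amygdala and from 10.81 through 11.04 to 11.77 in prefrontal cortex. These 3 regions overlapped, and their neighbouring means differed by 0.23 ± 0.25 (adjusted p = 0.658) and 0.09 (adjusted p = 0.877). Striatum arrays lay below them, from 8.89 to 9.61, and cerebellum arrays below those, from 4.87 to 7.42. The cerebellum deficit was -5.14 (adjusted p = 1.43e-24), a larger absolute difference than that of the other 9 genes of the set in any region.

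Npy2r encodes the Y2 receptor, often a presynaptic receptor that lowers transmitter release, and lies on chromosome 3 at 82538383 to 82548989. Hippocampus arrays ran from 9.35 through 10.15 to 11.97 and amygdala arrays from 7.64 through 9.63 to 10.25. In prefrontal cortex the arrays stayed between 5.41 and 6.86 and in striatum between 5.58 and 6.35. The hippocampus excess was 4.02 ± 0.25 (adjusted p = 1.17e-16), the amygdala excess 2.39 ± 0.25, and the prefrontal cortex and striatum differences were -1.46 and -1.61. Unlike Npy1r, which was called higher in prefrontal cortex by 1.75, Npy2r was called lower there. Npy itself was called higher in prefrontal cortex by 1.23 ± 0.19 and lower in cerebellum (difference -2.54).

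Sstr4 encodes a somatostatin receptor known from hippocampal pyramidal neurons and lies on chromosome 2 at 148395377 to 148396764. Its hippocampus arrays ran from 10.91 through 11.26 to 11.74, above every array of the other regions. Prefrontal cortex arrays ran from 9.48 through 9.81 to 9.98, amygdala arrays from 9.14 through 9.66 to 10.58, and striatum arrays from 8.03 through 8.91 to 9.21. Prefrontal cortex and amygdala overlapped and differed by 0.05 (adjusted p = 0.886). The hippocampus excess was 2.79 ± 0.12 (adjusted p = 5.86e-21), and region accounted for 96.4% of the variance of Sstr4 over the 40 arrays, against a median of 42.5% for tested genes.

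The other 3 somatostatin receptor genes called in a region shared only part of the Sstr4 pattern. Sstr2 was higher in amygdala by 2.68 ± 0.32 and in prefrontal cortex by 1.36 ± 0.32, and Sstr1 in amygdala by 1.07 ± 0.19. Sstr3, a receptor of neuronal cilia, was higher in hippocampus by 1.06 ± 0.16 and in prefrontal cortex by 1.02 ± 0.16, and lower in striatum (difference -2.19). The region means of Sstr1 ran from 3.60 to 5.23, all within the range of the background rows. The values of Sstr1 in amygdala and of Sstr3 in hippocampus and prefrontal cortex lie close to the minimum of 1 unit and fell below it in some fits with an array left out. The somatostatin precursor Sst was higher in amygdala by 2.62 ± 0.29, striatum by 1.96, hippocampus by 1.36 and prefrontal cortex by 1.20. Its cerebellum difference was -7.13. Its means were 17.44 in amygdala, 16.91 in striatum, 16.43 in hippocampus and 16.30 in prefrontal cortex, against 9.64 in cerebellum. The low cerebellum mean is part of the average behind each of these excesses and adds to them. Prefrontal cortex was called higher although its mean was below those of amygdala, striatum and hippocampus.

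Cckbr encodes the cholecystokinin B receptor, the main brain receptor for cholecystokinin and linked to anxiety and fear, and lies on chromosome 7 at 105425676 to 105436339. Prefrontal cortex arrays ran from 10.08 through 11.52 to 12.23 and amygdala arrays from 8.09 through 10.32 to 11.00. Hippocampus arrays spread from 6.02 through 8.02 to 9.02 and striatum arrays from 5.25 through 7.10 to 8.66. The prefrontal cortex and amygdala means differed by 1.07 ± 0.44 (adjusted p = 0.103), and hippocampus and striatum by 0.63 (adjusted p = 0.299). Cckbr was higher in prefrontal cortex by 3.79 ± 0.35 (adjusted p = 1.61e-11) and in amygdala by 2.46 ± 0.35. Its arrays within a group had an SD of 0.996, against a median of 0.324 for tested genes. Cck, its precursor ligand, was higher in prefrontal cortex by 2.70 ± 0.36, hippocampus by 2.66 ± 0.36 and amygdala by 2.13 ± 0.36, and lower in striatum (difference -3.66).

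All pairs of regions were also compared for each of the 10 genes. Of 100 such comparisons 76 were called, beside 12.7% over all tested genes, 7 passed the p threshold with a difference under 1 unit, and 17 did not pass. Oprk1 and Npy2r were called in 9 of the 10 pairs of regions, and Oprd1 and Tacr3 in 6. Region means spanned 6.09 log2 units for Cckbr, 5.89 for Npy2r, 5.83 for Npy1r, 5.65 for Tacr1, 5.57 for Sstr4 and 5.10 for Oprk1. For the remaining 4 genes the span was 2.57 to 3.91. Where a gene was within the background range in its lowest region, its span may be a lower bound.

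Several lists of other genes were counted in the same way. Of 9 further receptors of these families, the array had 8 and 6 passed the filter on dim genes. Among the 6, Sstr1, Sstr5 and Npy6r had every region mean within the range of the background rows. Of the 6 tested, 2 were higher in amygdala, 1 in hippocampus and 2 in prefrontal cortex, with 2 lower in cerebellum and 1 in striatum. Their median difference was 0.18 in amygdala and -0.70 in cerebellum, against -0.015 and -0.0071 over all genes.

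Of 46 receptors for other peptides, the array had 43, and 35 were tested. In amygdala 5 were higher and 2 lower, among them Trhr, the thyrotropin-releasing hormone receptor, by 4.77 ± 0.28 and Oxtr, the oxytocin receptor, by 2.80 ± 0.20. In cerebellum 5 were higher and 10 lower, and Crhr1, a receptor for corticotropin-releasing hormone, was higher there by 3.76 ± 0.17. Thus the cerebellum did have peptide receptor genes above the other regions, though none of the 10. In striatum 3 were higher and 8 lower, the higher ones led by Gpr83 at 4.82 ± 0.14 and the melanin-concentrating hormone receptor Mchr1 at 2.95 ± 0.13. Prefrontal cortex had 6 higher, such as Vipr2, a receptor for vasoactive intestinal peptide, by 3.02 ± 0.30 and Nmbr, the neuromedin B receptor, by 2.49 ± 0.26. Hippocampus had 2 higher and 3 lower, with the relaxin receptor Rxfp1 higher by 2.17 ± 0.41, and by 1.37 (adjusted p = 0.0211) without the 6 arrays of raised scores for other brain parts.

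All 11 ligand precursor genes were measured. In amygdala 4 were higher, in prefrontal cortex 4, in striatum 4 and in hippocampus 2, while 6 were lower in cerebellum, 2 in hippocampus and 1 in striatum. As with the receptor genes, a low cerebellum level adds to an excess elsewhere, and Sst was counted as higher in every other region. Of 19 genes for G protein signalling partners 17 were measured, and in striatum 3 were higher and 5 lower. The striatal regulator Rgs9, which speeds the turn-off of Gi and Go, was higher there by 9.25 ± 0.31, Adcy5, an adenylyl cyclase, by 6.35 ± 0.16 and Rgs4 by 4.13 ± 0.19. In hippocampus Kcnj6, a subunit of the potassium channel that Gi-coupled receptors open, was higher by 2.43 ± 0.24. Counts in the other regions were 2 higher and 3 lower in hippocampus, 2 higher and 1 lower in amygdala, 2 higher and 4 lower in cerebellum, and 2 higher and 2 lower in prefrontal cortex.

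Oprk1 in amygdala was 9.54 on Ala array 1, where all 14 striatum markers were above their amygdala mean and the score was 2.15. The same array had a cerebellum score of 1.53, with 8 of 12 markers above the mean, and a neocortex score of 1.12, with 14 of 14. Oprk1 was 8.32 on Thr array 5, with a striatum score of 0.32, and 6.39 to 7.48 on the remaining 6 arrays, with striatum scores of -0.75 to 0.11. Cckbr in amygdala was 8.09 on Ala array 2, with a hippocampus score of 1.27, and 9.98 to 11.00 on the others. Arrays with more striatum or hippocampus marker signal thus stood at the edge of both genes' ranges. Tacr1 in prefrontal cortex was 8.15 on array 27, with an olfactory bulb score of 1.43, 7.54 on array 32 with 1.05 and 7.16 on array 30 with 0.53, and 5.99 to 6.28 on the other arrays. Tacr1 in hippocampus was 6.02 on Thr array 23, where all 10 medial habenula markers were above the hippocampus mean and the score was 2.28, and 3.76 to 4.61 elsewhere.

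Cckbr in striatum was 8.66 and 8.03 on arrays 33 and 39, with neocortex scores of 0.77 and 0.76, and 5.25 to 6.27 on arrays 34, 36 and 37, with scores of -0.70 to -0.63. Npy2r in hippocampus was 11.97, 11.41 and 11.37 on arrays 21, 22 and 18, with thalamus scores of -0.73, -0.42 and -0.82, and 9.88 on array 23 with 1.80. Its lowest level, 9.35 on array 19, came with a thalamus score of -0.26. These genes, regions and marker lists were picked as cases where level and score moved together, so they do not speak for other genes or regions. The part of these tissues in the receptor levels was not tested. Without the 6 arrays, a choice made after seeing the data, all 31 calls between regions were kept. Tacr1 was then also called in amygdala (1.04) and Cckbr in hippocampus (-1.35).

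**Figure D2:**
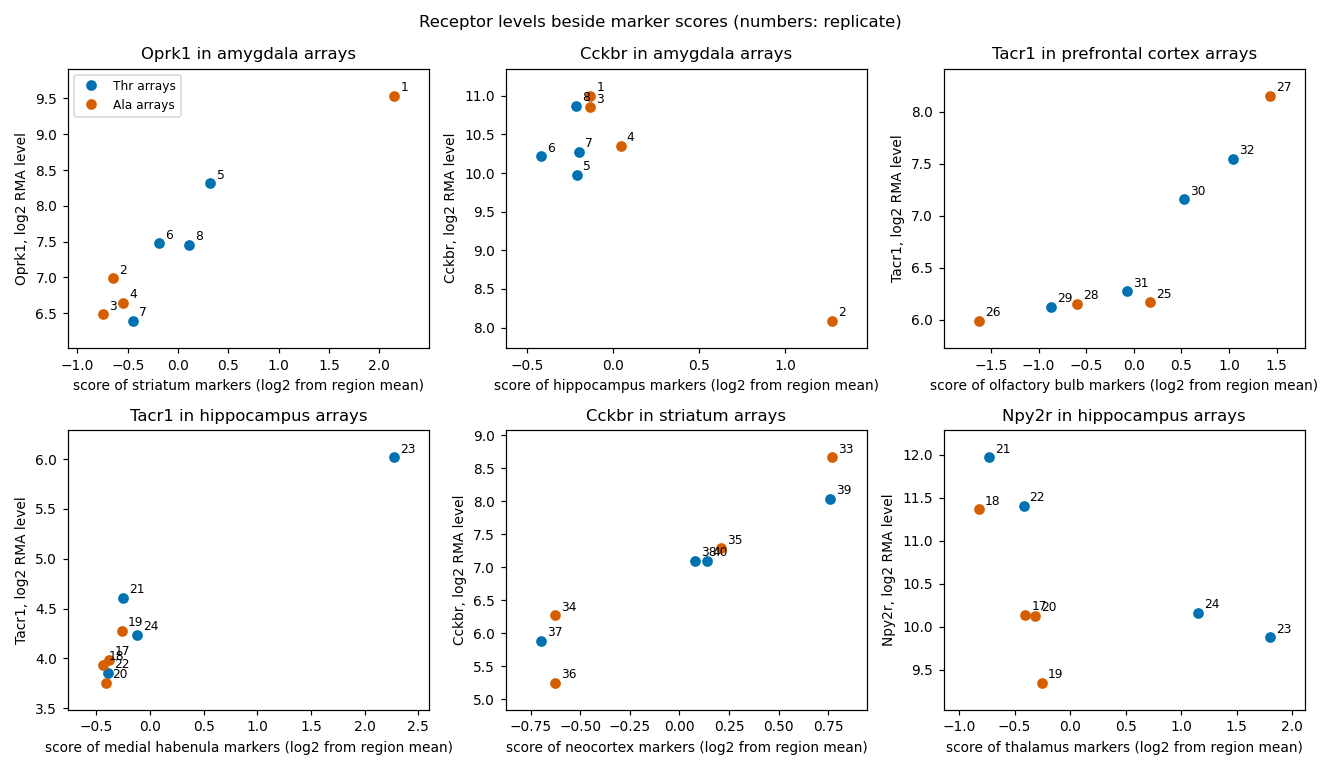
Log2 level of a receptor gene (vertical axis) against the score of markers of another tissue (horizontal axis, log2 units from the region mean) for the 8 arrays of a region, in 6 pairs of gene and region, with points coloured by genotype and numbered by replicate. The pairs and their marker lists were picked as cases where level and score moved together, and other pairs are not shown. Ala amygdala array 1 has the highest Oprk1 (9.54) and striatum score (2.15), and Thr hippocampus array 23 the highest Tacr1 (6.02) and medial habenula score (2.28).

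The study's main contrast was between Ala and Thr arrays within each region. None of the 10 receptor genes was called in any region by limma at an adjusted p under 0.05. Across all tested genes 0.123% were called in amygdala, 0.0779% in striatum and 0% in cerebellum, hippocampus and prefrontal cortex. At an unadjusted p under 0.05 there were 3 of the 10 in amygdala, beside 5.26% of all genes, 1 in cerebellum beside 1.99% and 1 in striatum beside 6.09%. There were none in hippocampus and prefrontal cortex, beside 3.21% and 2.36%. Genotype within region made up 0.299% to 3.13% of the variance of these genes, against a median of 5.41% for tested genes. Region made up 75.0% to 96.4%, against a median of 42.5%, and arrays within a group 1.99% to 24.1%, against 49.8%. These are shares of the total variance, so a large region share lowers the other 2, and the genotype share does not measure the size of a genotype difference. For Sstr4 genotype made up 1.64% beside 1.99% for arrays within a group, and for Tacr1 3.13% beside 6.81%. The shares were not divided by degrees of freedom, which are 5 for genotype within region and 30 for arrays within a group. The 2 shares of a gene can therefore not be compared directly.

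In amygdala Tacr1 was at 6.02, 5.71, 7.01 and 5.66 on the Ala arrays and at 7.45, 7.54, 7.10 and 8.32 on the Thr arrays. The genotypes did not overlap, though the highest Ala array and the lowest Thr array were close. The difference, Ala minus Thr, was -1.50 ± 0.41 (unadjusted p = 7.73e-04, adjusted p = 0.256), and the Ala mean of 6.10 lay within the range of the background rows. Sstr4 in amygdala was at 10.30, 10.58, 10.11 and 9.83 on the Ala arrays and at 9.19, 9.44, 9.49 and 9.14 on the Thr arrays. It differed in the opposite direction, by 0.89 ± 0.22 (unadjusted p = 2.05e-04, adjusted p = 0.117), again without overlap. Oprm1 in amygdala was at 9.62, 9.72, 8.96 and 9.56 on the Ala arrays and at 9.88, 10.76, 9.83 and 10.33 on the Thr arrays, a difference of -0.74 ± 0.35 (unadjusted p = 0.0421, adjusted p = 0.932).

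These were the 3 genes of the 10 whose genotypes did not overlap in amygdala, where 3.15% of all tested genes did not. In the other 4 regions none of the 10 was without overlap, beside 2.65% of all genes in cerebellum, 2.73% in hippocampus, 1.69% in prefrontal cortex and 1.96% in striatum. Marker scores of the amygdala arrays also moved with genotype. The score of 13 amygdala markers was -0.65 to 0.04 on the Ala arrays and 0.02 to 0.79 on the Thr arrays, and 2 of the 13 were called lower in Ala. For 10 hippocampus markers it was -0.13 to 1.27 on Ala and -0.42 to -0.20 on Thr arrays, and for 8 olfactory bulb markers -0.30 to -0.09 and 0.11 to 0.36, with none called in either list at an adjusted p under 0.05 by limma and 3 and 0 at an unadjusted p under 0.05. For 7 hypothalamus markers it was -0.67 to -0.06 and -0.14 to 0.52, and 2 were called lower in Ala. The amygdala list named Gpx3 and the hypothalamus list Cartpt. Both lists were chosen with earlier results of these data known, so their shifts with genotype are not independent of those results. The hippocampus and olfactory bulb scores did not overlap between genotypes, and the part of these tissues in the receptor differences was not tested. With the 6 arrays of raised marker scores left out, the differences were -1.27 for Tacr1 (adjusted p = 0.335), 0.66 for Sstr4 (adjusted p = 0.533) and -0.94 for Oprm1 (adjusted p = 0.546). Leaving out each array in turn, the adjusted p ran from 0.0930 to 0.855 for Tacr1 and from 0.0580 to 0.444 for Sstr4.

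Outside amygdala, Sstr4 in striatum differed by 0.53 ± 0.22 (unadjusted p = 0.0192, adjusted p = 0.741), and by 0.25 in hippocampus, 0.17 in cerebellum and -0.05 in prefrontal cortex. Averaged over regions its difference was 0.36 ± 0.10 (unadjusted p = 6.81e-04, adjusted p = 0.536), positive in 4 of 5 regions. Tacr1 differed by -0.69 in hippocampus, 0.30 in cerebellum, -0.16 in prefrontal cortex and 0.01 in striatum, with an average of -0.41 ± 0.18 (adjusted p = 0.883). Oprm1 in cerebellum differed by 0.79 ± 0.35 (unadjusted p = 0.0288, adjusted p = 1.00), the reverse of its sign in amygdala. None of the 10 was called for the average, beside 0.0195% of all genes, or for a difference that varied between regions, beside 0.0389%, and in each of these tests Tacr1 and Sstr4 were the 2 of the 10 with an unadjusted p under 0.05. Over all genes the share under that p was 5.31% for the average and 2.68% for the variation between regions. Marker scores outside amygdala also differed between genotypes. In striatum the choroid plexus score was -0.18 to 2.53 on Ala and -1.37 to -0.64 on Thr arrays. Of its 13 markers 10 had an unadjusted p under 0.05 by limma and none was called. Choroid plexus scores in prefrontal cortex and olfactory bulb scores in hippocampus did not overlap either. The part of these tissues in the receptor values was not tested.

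**Figure D3:**
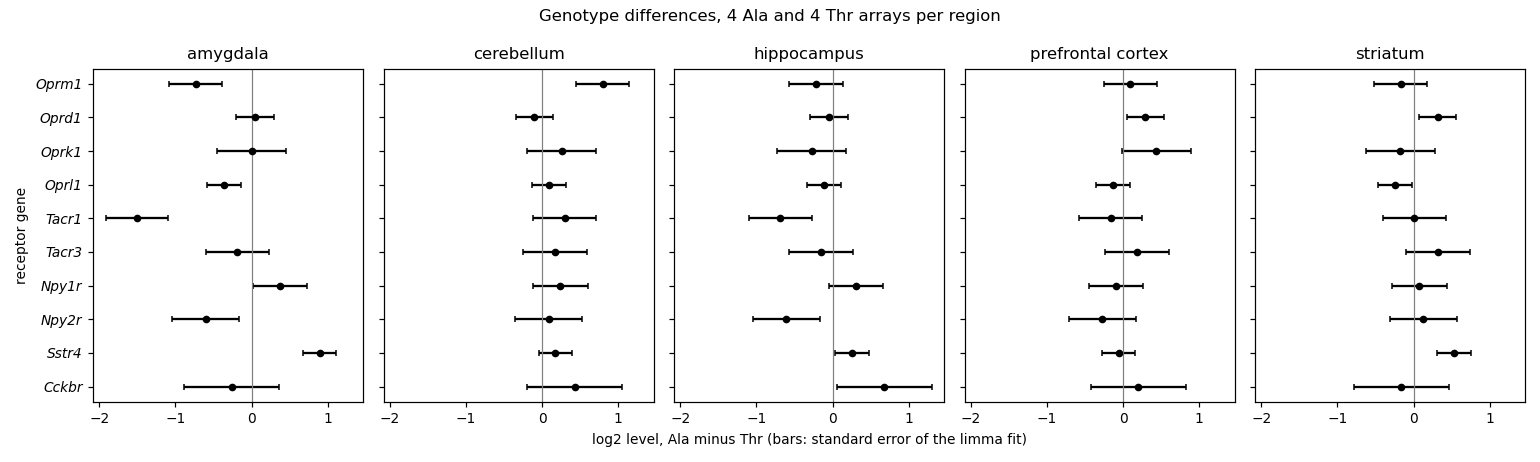
Difference in log2 level, Ala minus Thr (horizontal axis), of each receptor gene (rows) in each region (panels), from 4 Ala and 4 Thr arrays, with bars for the standard error of the limma fit. In amygdala Tacr1 lies at -1.50 and Sstr4 at 0.89, and in the other regions all 10 genes lie within 0.79 of 0; no difference passed the adjusted threshold.

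Of the other receptor, ligand and signalling genes listed, 2 were called between genotypes, both in amygdala. Mc3r, a melanocortin receptor, was at 3.49 ± 0.18 in Ala and 4.49 ± 0.21 in Thr arrays (SD, n = 4), a difference of -0.995 ± 0.21 (adjusted p = 0.0386). Calcr, the calcitonin receptor, was at 3.59 ± 0.23 and 4.74 ± 0.45, a difference of -1.15 ± 0.25 (adjusted p = 0.0414). All 4 means lay within the range of the background rows. Neither was called without Ala arrays 1 and 2 and the other arrays of raised marker score (adjusted p = 0.208 and 0.319). With single arrays left out, Mc3r was not called without Ala amygdala 2, 3 or 4 or Thr amygdala 5, 6, 7 or 8. Calcr was not called without Ala amygdala 1, 2, 3 or 4, Thr amygdala 5, 6 or 8, Ala cerebellum 10 or Ala striatum 35, and the highest adjusted p of these fits was 0.240 for Mc3r and 0.331 for Calcr. Pnoc differed in amygdala by -0.80 ± 0.26 (adjusted p = 0.520), and its amygdala mean over both genotypes, 6.24, lay within the range of the background rows.

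The genes whose levels followed each receptor gene most closely over the 40 arrays are given as a description, since the arrays fall into 5 regions and share them. For Oprk1 these were Rxrg, Tac1 and Adcy5 (r = 0.942, 0.940 and 0.935), and for Oprd1 Chrm4, Tmtc1 and Pmepa1 (0.934, 0.932 and 0.920). Oprm1 was followed by Arhgap33 (0.920), Tacr1 by Arpp21 (0.934), and Oprl1 by Pcdh8 (0.946). For Npy1r the closest were A830018L16Rik, Dok6 and Vstm2a (0.978, 0.974 and 0.973), for Npy2r Slc44a5 (0.968), for Sstr4 Epha6 (0.967), for Cckbr Tmem196 (0.946) and for Tacr3 Nrsn2 (0.869). After group means were removed, the correlation with the closest gene was 0.76 for Cckbr, 0.72 for Npy2r, 0.72 for Npy1r, 0.59 for Oprd1 and 0.47 for Tacr3. It was 0.37 for Oprl1, 0.26 for Oprk1, 0.24 for Tacr1, 0.19 for Sstr4 and 0.05 for Oprm1. Among the receptor genes themselves, Npy1r and Sstr4 correlated at 0.94 and Oprk1 and Tacr1 at 0.87 over the arrays. Within groups Npy2r and Cckbr had the lowest correlation, at -0.56, and Oprm1 and Cckbr stood at 0.53.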

How the data were processed

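The 40 arrays were deposited as 1 table of log2 signals that the authors made with RMA, per the submitters' processing notes. Its software version is not given in the sources used here. This method subtracts background, normalizes between arrays and summarizes probes, and array medians lay between 6.12 and 6.32, so no scaling was added. No arrays were identical. Of 28846 rows, 19572 had 1 gene symbol, all matched to the GRCm38.p6 gene table.

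Genes were tested if 4 or more arrays exceeded log2 4.47, the table's 30th percentile. The limma package (version 3.58.1, R 4.3.3) fitted 10 group means (lmFit, eBayes with a trend, 30 residual degrees of freedom), and p-values were adjusted over 15410 genes per contrast. Standard errors and adjusted p-values in the text are from this fit. Contrasts compared Ala with Thr by region, their average, an F-test of the variation between regions, each region against the others, and pairs of regions. No array was assigned to a batch, as none is labelled.

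The receptor genes, gene lists and marker lists were chosen with earlier results of these data known. All 10 receptor genes are described. From the other lists, the rule named up to 3 genes called higher per region and list with the largest differences, genes called between genotypes, and for each receptor gene the 3 genes of highest Pearson correlation. Values of Pnoc, Pomc and of named genes in further regions lie outside this rule and were chosen after their values were seen. The steps were tested on simulated data: in the amygdala genotype comparison, 72% of 50 simulated differences of 1 log2 unit were called and 10% of 50 differences of 0.5 units. The changed genes were drawn at random from all tested genes, whose median SD within groups was 0.324. That SD was 0.308 to 0.359 for Sstr4, Oprl1 and Oprd1 and 0.540 to 0.996 for the other receptor genes. The same simulated data also held 50 differences of 2 units and 50 of 4 units, and 100% of each were called. In the real amygdala comparison 19 of 15410 genes were called. More true differences ease the adjusted threshold, so the simulated setting was more permissive than the data. The simulated shares therefore do not give the power for the receptor genes, least of all for those of larger SD. Alternatives covered scaling, filters, thresholds, array weights, the groups fitted and each array left out.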

Additional observations from a re-analysis of the deposited data

Results flagged for a closer look

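Of 100 groups of 4 arrays (10 receptor genes in 10 groups), 7 had an array far from the other 3 by Dixon's criterion, which chance alone meets in about 1 in 20 groups. Oprm1 was 9.05 on Ala striatum array 36, against 10.20 to 10.38 on the others of its group, and 8.96 on Thr striatum array 37, against 10.41 to 10.58. Array 36 had a choroid plexus score of 2.53 and array 37 one of -0.85. Oprd1 was 6.15 on Ala cerebellum array 9, against 6.54 to 6.60. Oprk1 was 9.54 on Ala amygdala array 1, against 6.49 to 6.99, with a striatum score of 2.15. Tacr1 was 8.15 on Ala prefrontal cortex array 27, against 5.99 to 6.17, with an olfactory bulb score of 1.43, and Tacr3 was 4.93 on that array against 4.76 to 4.78, all within the background range. Cckbr was 10.25 on Thr prefrontal cortex array 30, against 11.39 to 11.60. The part of the marked tissues in these values was not tested.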

How the results depend on the processing

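No paired analysis was possible because the replicate numbers in the labels run from 1 to 40 and no groups share a number. All 31 calls of receptor genes between regions kept their direction and side of the threshold in each of 49 alternatives run on the single genes, 40 of which left out 1 array. Requiring 2 log2 units left 18 of these 31 calls and 46 of the 76 calls between pairs of regions, and left 2 of 5 in amygdala, 1 of 4 in prefrontal cortex and 2 of 7 in striatum. With no minimum difference there were 9 in amygdala, 8 in hippocampus and 7 in prefrontal cortex. The shares of all tested genes at 2 units and with no minimum were not counted. These counts therefore show only how the calls depend on the minimum, and do not set the receptor genes apart from other genes. For the other listed genes the 101 calls between regions became 216 with no minimum and 48 at 2 units. Their 2 genotype calls fell to 0 with a filter at the 50th percentile, without the 6 arrays of raised marker scores (a choice made after seeing the data) or with the compared groups fitted alone, and ranged from 0 to 2 with an array left out. Single arrays added calls between regions: Oprk1 in amygdala (0.84, not called) was 1.01 without Thr amygdala 7 but 0.49 without Ala amygdala 1 and 0.38 without the 6 arrays (adjusted p = 0.239), Tacr3 in amygdala 1.09 without Ala amygdala 1 and 1.04 without Thr amygdala 5, and Cckbr in hippocampus -1.01 without Ala hippocampus 19 and -1.06 without Thr hippocampus 23. Sstr1 in amygdala was below 1 unit without Ala amygdala 4 or Thr amygdala 7 (0.985 and 0.943) or without the 6 arrays (0.991), Sstr3 in hippocampus without Ala hippocampus 18 (0.968), and Sstr3 in prefrontal cortex under quantile normalization (0.989), median centring (0.986), without the 6 arrays (0.974) and without Ala hippocampus 20, Ala prefrontal cortex 28, Thr prefrontal cortex 31 or 32 or Thr striatum 37 (lowest 0.942). Genotype calls of the 10 receptor genes were 0 in every alternative run. Signs of small genotype differences were not stable. Without the 6 arrays the averages of Oprm1 and Oprk1 became 0.043 and -0.033, the amygdala values of Oprd1, Oprk1 and Cckbr -0.12, -0.85 and 0.27, and Sstr4 in prefrontal cortex 0.019. Oprk1 in amygdala was -0.0023 after quantile normalization and -0.14 with array weights, and Tacr1 in striatum -0.0017 after quantile normalization and -0.026 after median centring. With an array left out, averages ran from -0.12 to 0.015 for Oprm1, -0.092 to 0.12 for Oprk1 and -0.024 to 0.15 for Tacr3. In amygdala the ranges were -0.11 to 0.13 for Oprd1, -0.70 to 0.31 for Oprk1, -0.65 to 0.24 for Tacr3 and -0.57 to 0.40 for Cckbr. Sstr4 ran from -0.053 to 0.38 in cerebellum and -0.12 to 0.045 in prefrontal cortex, and Tacr1 from -0.67 to 0.10 in prefrontal cortex and -0.24 to 0.22 in striatum. The cause of these changes was not tested. Levels within the background range limit what can be said of the cerebellum.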
